A study of Mus musculus with 6 samples.

Results

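The genes described here encode the enzymes of glycolysis, the transporters that bring glucose in and lactate out, the gatekeepers of mitochondrial pyruvate use and a set of hypoxia-linked genes. They were read in Pax5-deficient pro-B cells of the mouse that had been given either EBF, a transcription factor of early B cell development, or a control virus. A list of 40 genes was fixed by name, and each gene was read at the brightest of its probe sets over all 6 arrays. The EBF arrays enter that mean, so a rise or fall in them can sway which probe set is read. Of the 40 entries, 34 were found under the symbol given and 2 under a newer one (Pkm for Pkm2, Ero1a for Ero1l), which makes 36 members among 18193 measured genes. Gpi1, Pfkfb1 and Eno1 had no probe set named for them alone and are not analysed here, and Gapdh was read from control probe sets as a description.

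The EBF group consists of 3 arrays of Pax5-/- pro-B cells infected with the Mig-EBF retrovirus, and the control group of 3 arrays of Pax5-/- pro-B cells infected with the MigR1 retrovirus. Both groups thus share the loss of Pax5, culture on ST2 stromal cells with 5 ng/ml IL-7 before and after infection, and sorting for GFP 2 days after infection. The labels give neither the age of the mice, nor the Pax5 allele, nor whether the arrays came from separate cultures or animals, so each p-value rests on a spread among arrays that may be technical. The numbers 1 to 3 of the arrays are the labels' replicate numbers.

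Glycolysis splits glucose into pyruvate and yields ATP without oxygen, and growing lymphocytes run it fast, turning much of the pyruvate into lactate that leaves the cell through monocarboxylate transporters. Many of its genes are targets of HIF-1, whose alpha subunit is marked for destruction by oxygen-dependent prolyl hydroxylases, and many are also targets of Myc. Pyruvate dehydrogenase kinases hold pyruvate back from the mitochondria.

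The bright pro-B genes Vpreb1 and Igll1 had means of 19549.6 and 13667 in the EBF arrays and 18553 and 9243 in the control arrays. Cd79a and Cd79b, the signalling chains of the B cell receptor, were at 1299 and 8296 against 1564 and 6303. Ebf1 itself was at 4537 ± 394 and 4169 ± 127 (SD, n = 3 each) at the brightest of its 5 probe sets. The groups overlapped there, with a log2 difference of 0.12 (limma adjusted p = 0.469). Whether this probe set lies in the part carried by the virus is not known here. Of 25 ST2 stromal or fibroblast markers, 0 passed the limma test, 1 had an unadjusted p under 0.05, and 0 passed with the replicate number as a block. Their summed intensity was 30984 to 42383 in the EBF and 33686 to 51392 in the control arrays, which overlap. Several of these markers were bright, such as the matrix genes Fn1 (3956 in the EBF and 5416 in the control arrays), Sparc (4003 and 3617) and Col1a2 (3507 and 4813), while the cadherin gene Cdh11, the dimmest of the 25, was at 51.0 and 50.8, below the medians of 97.6 to 108 that the Bacillus control probe sets had per array. Of 13 proliferation genes, 0 passed the limma test (6 had an unadjusted p under 0.05), 3 were higher with the block (Mki67, Plk1 and Rrm2), and their summed intensity was 88270.1 to 94329.9 in the EBF and 75487 to 83101 in the control arrays, which do not overlap. Of 12 pro-B markers 0 were called higher and 1 lower (Dntt, the terminal transferase, 1547 against 2549). With the block 3 were higher (Cd79b, Igll1 and Il7r) and 1 lower (Dntt). Without it 8 had an unadjusted p under 0.05, 5 higher and 3 lower. The summed pro-B markers were 75496 to 77461 in the EBF and 67661 to 70510 in the control arrays, which do not overlap. Of 10 myeloid markers 2 were called lower (Lyz2 and Fcgr3), and of 7 NK markers 1 higher (Gzma) and 2 lower (Klrd1 and Nkg7). Beside these marker counts, 1.09% of all 18193 genes were called by limma and 7.31% with the block, and 19.7% had an unadjusted p under 0.05. Of 4 erythroid markers 0 were called and 2 were higher with the block. These were Alas2, the first enzyme of heme synthesis in red cells (495 against 341, near the highest Bacillus control value of 410), and Epor, the erythropoietin receptor (1249 against 899). The other 2, Hba-a1 (142 against 150) and Klf1 (1221 against 1264), had lower means in the EBF arrays, with overlapping groups. Of 5 T cell markers 0 passed in either fit. The summed erythroid markers were 2944 to 3203 in the EBF and 2633 to 2676 in the control arrays, which do not overlap, and the T cell sums of 3399 to 3921 and 3308 to 3832 overlap. The sum of the myeloid markers was 5905 to 6225 against 6487 to 7327, and that of the NK markers 3186 to 4243 against 4887 to 6492. The part of these in the results below was not tested. In RNA of whole sorted populations, fewer cells of a type and less RNA per cell cannot be told apart. The 3' over 5' ratio of the Gapdh control probe sets was 1.01 to 1.04 over the 6 arrays and that of beta-actin 1.13 to 1.25. Control 2 stood apart in its 18S rRNA control probe sets, the 3' one reading 15082 against 4385 to 6798 in the other arrays, and leaving out EBF 3 raised the share of all genes called from 1.09% to 9.97%.

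Differences are given as EBF minus control on the scale of log2(intensity + 32), with limma's standard error, with the Benjamini-Hochberg adjustment taken over all 45037 probe sets tested. A gene was called at an adjusted p below 0.05. No member was called: 0 of 36 were higher and 0 lower by limma, beside 1.09% of all 18193 genes called. At an unadjusted p under 0.05 there were 8 members (22.2%), 5 higher and 3 lower, beside 19.7% of all genes (13.5% higher and 6.23% lower). When the replicate number entered the fit as a block, 1 member was higher (Slc16a1) and 2 lower (Aldoc and Eno3), 8.33% of the members beside 7.31% of all genes. Without EBF 3, 2 members were higher (Slc16a1 and Pfkfb3) and 1 lower (Aldoc), beside 7.08% and 2.89% of all genes. Without EBF 3 and control 2 together 0 were called, beside 4.47% of all genes (3.17% higher and 1.31% lower). The shares at an unadjusted p and with the block lie near those of all genes. The groups did not overlap for 12 members (33.3%), 6 higher and 6 lower in the EBF arrays, beside 25.2% of all genes, 17.2% higher and 8.06% lower. The median difference of the members was -0.01 beside 0.03 for all genes, and the median size without regard to sign was 0.08 beside 0.11. The widest bounds of the 95% intervals over all members were 0.666 and 1.52 times the control level.

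**Figure D1:**
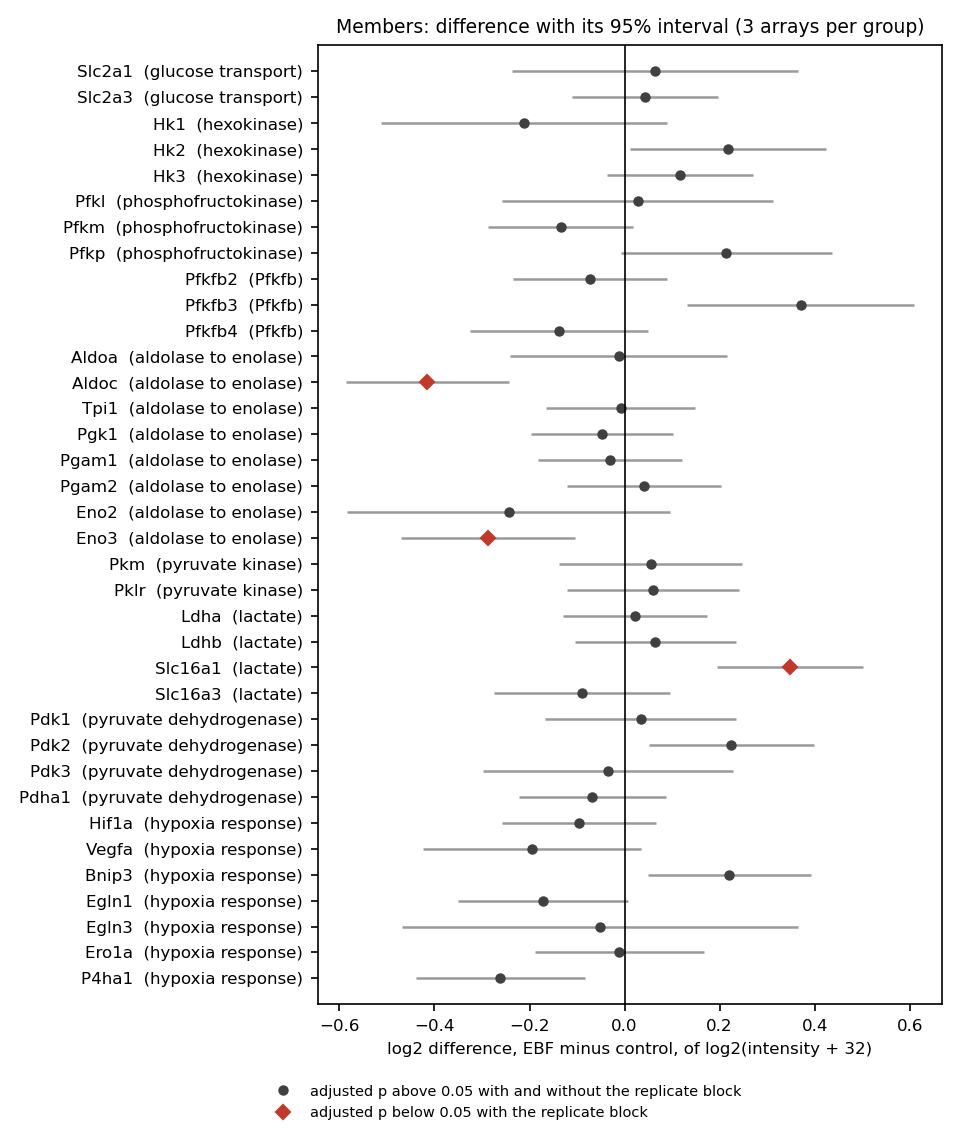
Log2 difference between the EBF and control arrays (x axis, on the log2(intensity + 32) scale) for each of the 36 members, grouped by role; points are limma estimates from 3 arrays per group and bars their 95% intervals, not adjusted for the number of genes. Red diamonds mark Aldoc, Eno3 and Slc16a1, whose adjusted p was below 0.05 with the replicate block; the estimates run from -0.41 for Aldoc to 0.37 for Pfkfb3.

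The promoters of Aldoc, Eno3 and Slc16a1 are shown because these 3 members passed with the block. Each line holds the 250 bases before the first start that RefSeq lists for the gene (GRCm38.p6, plus strand, 5′ to 3′). Capitals mark the core letters of the hypoxia response element (ACGTG or GCGTG) and of the EBF motif (CCCNNGGG), searched on both strands.
Aldoc, chr11:78322823-78323072: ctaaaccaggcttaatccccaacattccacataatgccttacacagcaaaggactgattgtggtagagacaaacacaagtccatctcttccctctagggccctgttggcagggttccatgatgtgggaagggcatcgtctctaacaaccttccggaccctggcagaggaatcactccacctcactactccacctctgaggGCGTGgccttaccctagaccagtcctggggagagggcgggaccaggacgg
Eno3, chr11:70656926-70657175: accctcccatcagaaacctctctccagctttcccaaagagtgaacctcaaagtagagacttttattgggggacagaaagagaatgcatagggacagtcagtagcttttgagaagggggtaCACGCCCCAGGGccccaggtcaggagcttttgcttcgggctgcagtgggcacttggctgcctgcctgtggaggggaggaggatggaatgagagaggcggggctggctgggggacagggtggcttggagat
Slc16a1, chr3:104638414-104638663: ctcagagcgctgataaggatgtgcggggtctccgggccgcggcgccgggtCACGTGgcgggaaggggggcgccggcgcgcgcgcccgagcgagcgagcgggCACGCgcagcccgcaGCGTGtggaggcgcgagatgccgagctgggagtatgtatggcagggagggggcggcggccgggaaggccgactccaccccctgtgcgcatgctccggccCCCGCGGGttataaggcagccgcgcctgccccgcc

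The Aldoc window held 1 match to the hypoxia letters, 50 bases before the start, and 0 to the EBF letters. The Eno3 window held 1 hypoxia match and 1 EBF match, which overlap. Slc16a1 had 4 hypoxia matches, of which an overlapping pair on opposite strands spells the E-box CACGTG, the letters Myc binds, 200 bases before the start, and 1 EBF match 35 bases before it. Of the 40 entries, 39 had a promoter in the table. Among these 39, 29 (74.4%) held the hypoxia letters, beside 43.8% of 17492 protein-coding genes and 38.6% of 27025 genes of any kind. The windows differed in composition too, with a median GC content of 61.6% in the 39 and 55.2% in protein-coding genes, and a median of 14 and 10 CG pairs; the hypoxia letters hold a CG pair. The E-box letters stood in 7 (17.9%) beside 6.64% of protein-coding genes, the EBF core letters in 8 (20.5%) beside 13.3%, and the same letters with a T before and an A after them in 0 beside 0.818%. A match to letters is a description and does not show that a factor binds there.

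Glucose enters through the facilitative transporters Slc2a1 (GLUT1) and Slc2a3 (GLUT3), and neither passed in either fit. Slc2a3 read 3405, 3494 and 3313 in EBF 1 to 3 and 3401, 3280.4 and 3231 in control 1 to 3, with overlapping groups and a log2 difference of 0.04 ± 0.07 (adjusted p = 0.764). For Slc2a1 the difference was 0.06 ± 0.13. Its 95% interval of -0.24 to 0.36 leaves room for a rise like the 0.35 of Slc16a1, but not for a fall like those of Aldoc (-0.41) or Eno3 (-0.29).

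Hexokinases trap glucose in the cell by phosphorylating it. Hk2, the form that growing cells induce, read 2259, 2255 and 1930.4 in the EBF arrays and 1989.8, 1762 and 1772 in the controls, where EBF 3 lay below control 1. Its difference was 0.22 ± 0.09 (adjusted p = 0.246). Hk1, the widely expressed form, read 2734, 3264 and 3632 against 3156, 3821 and 4193. The log2 difference between arrays of the same number was -0.20, -0.23 and -0.21, yet the groups overlapped. Over the groups it was -0.21 ± 0.13 (adjusted p = 0.413 by group alone, blocked 0.111). Its other probe set had a difference of -0.03. Hk3, the form of myeloid cells, read 443, 438 and 461 against 407, 423 and 400.1, near the highest Bacillus control value of 410 (0.12 ± 0.07, adjusted p = 0.380). A dimmer Hk3 probe set had means of 213 and 149 and a difference of 0.44 ± 0.10 (adjusted p = 0.0970, and 0.0344 with the block); both means lie within the range of the Bacillus controls.

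Phosphofructokinase commits sugar to glycolysis, and its 3 subunit genes had differences of both signs. Pfkp, the platelet form, read 1923, 1947 and 1960.0 in the EBF arrays and 1703, 1455 and 1883 in the controls, so that the groups did not overlap (0.21 ± 0.10, adjusted p = 0.279). Pfkm, the muscle form, read 1125, 1090.2 and 1119 against 1199, 1205 and 1265, lower in every EBF array (-0.13 ± 0.07, adjusted p = 0.316). Pfkl, the liver form, had a difference of 0.03 ± 0.12. The other 2 Pfkp probe sets had differences of 0.01 and 0.0029 against the 0.21 of the brightest one.

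The Pfkfb enzymes make and break fructose 2,6-bisphosphate, the activator of phosphofructokinase. Pfkfb3, the form with the strongest kinase activity, read 1026, 869 and 804 in EBF 1 to 3 and 624, 709 and 728 in control 1 to 3. The groups did not overlap, and the difference was 0.37 ± 0.10, from a control mean of 687 ± 55.2 to 899.8 ± 114 (SD, n = 3 each). It missed the threshold in both fits (adjusted p = 0.146 by group alone, blocked 0.0648). The threshold was passed without EBF 3 (0.44, adjusted p = 0.0363), and not without EBF 3 and control 2 together (adjusted p = 0.0718). By number the excess was 0.69, 0.28 and 0.14, and the other Pfkfb3 probe set had 0.17 ± 0.08. That other probe set was the brighter one in the controls (mean 723 against 687) and the dimmer one in the EBF arrays (815 against 899.8). The choice of the probe set with the larger difference thus rested on the EBF arrays. Pfkfb4 read 1124, 1189 and 1151 against 1204, 1410.0 and 1216 (-0.14 ± 0.08, adjusted p = 0.394). Pfkfb2 read 1031, 993 and 1095 against 1064, 1109 and 1108, with overlapping groups (-0.07 ± 0.07).

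From aldolase to enolase, Aldoc and Eno3 were lower with the block, and none of the 8 genes passed without it, beside 2.51% of all genes lower with the block; Aldoc and Eno3 are the 2 lower members counted above. Aldoc, the aldolase known from brain, read 1699, 1890.3 and 1736 in EBF 1 to 3 and 2479.8, 2298 and 2351 in control 1 to 3. Every EBF array lay below every control array, and the mean was 1775 ± 102 against 2376 ± 93.7 (SD, n = 3 each). The log2 difference was -0.41 ± 0.07, with a 95% interval of 0.666 to 0.844 times the control (adjusted p = 0.0507 by group alone, blocked 0.0188). The threshold was also passed without EBF 3 (adjusted p = 0.0278), and missed without any other single array (0.131 to 0.175). A dim Aldoc probe set, with means of 175 and 194, had -0.13 (adjusted p = 0.405).

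Eno3, the enolase known from muscle, has 1 probe set here and read 755, 834 and 827 against 914, 1032 and 1025. The groups did not overlap, and the log2 difference between arrays of the same number was -0.27, -0.30 and -0.30. With 806 ± 43.9 against 990.2 ± 65.8 (SD, n = 3 each) the difference was -0.29 ± 0.08 (adjusted p = 0.145, and 0.0471 with the block). Eno2, the enolase known from neurons, read 159, 108 and 165 against 149, 170.1 and 206, all within the range of the Bacillus controls (-0.24 ± 0.15, adjusted p = 0.403). Pgam2, the muscle form of phosphoglycerate mutase, had 0.04 ± 0.07.

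The remaining genes of this stretch were among the brightest of the arrays: between 0.29% and 0.68% of probe sets were brighter than Aldoa, Tpi1, Pgk1 and Pgam1. Their differences were -0.01 ± 0.10 for Aldoa, -0.0081 ± 0.07 for the triose phosphate isomerase gene Tpi1, -0.05 ± 0.07 for Pgk1, which makes the first ATP of the pathway, and -0.03 ± 0.07 for Pgam1. With Pkm and Ldha, the 95% intervals of these 6 genes lay between 0.847 and 1.19 times the control at their brightest probe sets. The 5 Aldoa probe sets ran from -0.14 to 0.07. The other Tpi1 probe sets had 0.04 ± 0.07 and, at the dimmest one (means 10055 and 8975), 0.16 ± 0.09 (adjusted p = 0.342). The 3 Gapdh control probe sets, which were not in the fit, read 21200.3 to 23095 in the EBF and 21460.2 to 22693 in the control arrays. Their log2 differences were 0.0035, -0.02 and -0.0065. The highest intensity of any probe set was 30067. Whether probe sets this bright still respond in proportion to RNA is not given in the sources used here.

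Pyruvate kinase makes pyruvate, and neither gene passed. Pklr, the form known from liver and red cells, read 1419, 1569 and 1547 in the EBF arrays and 1486, 1513 and 1349 in the controls, which overlap (0.06 ± 0.08, adjusted p = 0.712). Its other probe sets were near or below the highest Bacillus value of 410. The one with means of 442 and 378 had 0.21 ± 0.09 (adjusted p = 0.240), and the one with 220 and 193 had 0.16 ± 0.08 (0.306). Pkm had a difference of 0.06 ± 0.08 with an interval of 0.909 to 1.19 times the control.

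Lactate dehydrogenase turns pyruvate into lactate, and Slc16a1 and Slc16a3 carry lactate across the membrane. Slc16a1, which encodes the transporter MCT1, read 5731, 5839.5 and 5836 in EBF 1 to 3 and 4728, 4418 and 4508 in control 1 to 3. The 3 EBF arrays lay close together and above every control array, with 5802 ± 61.6 against 4551 ± 159 (SD, n = 3 each). The log2 difference was 0.35 ± 0.07, or 1.14 to 1.42 times the control by the 95% interval (adjusted p = 0.0634 by group alone, blocked 0.0272). Slc16a1 passed without EBF 3 (adjusted p = 0.0316) and missed the threshold without any other array (0.143 to 0.246). Its second probe set, at 333 and 347, lies within the range of the Bacillus controls and had -0.05. Slc16a3, the exporter MCT4 of strongly glycolytic cells, read 224, 247 and 263 against 254, 278 and 254, also within that range (-0.09 ± 0.08). Ldha had a difference of 0.02 ± 0.07, 0.915 to 1.13 times the control, and Ldhb 0.06 ± 0.07.

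**Figure D2:**
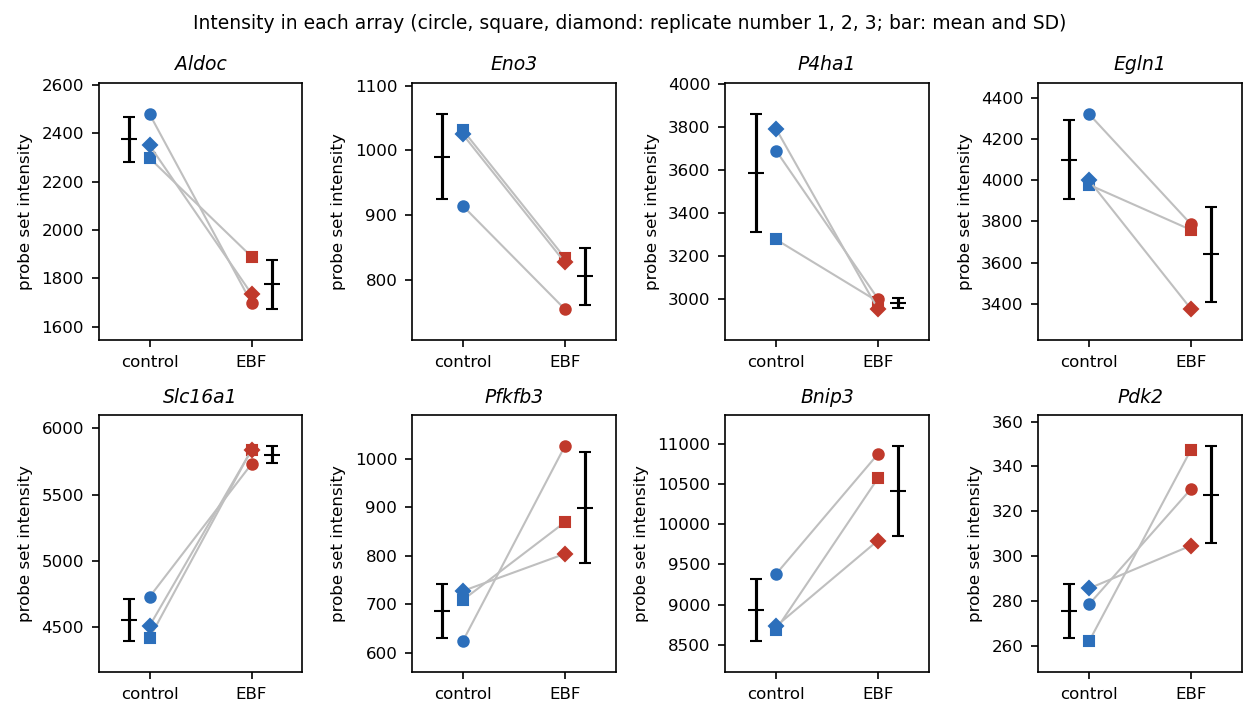
Probe set intensity (y axis, linear, not starting at 0) of 8 members in each control array (blue) and EBF array (red); circle, square and diamond stand for replicate numbers 1, 2 and 3, grey lines join arrays of the same number, and black bars give the mean and SD of 3 arrays. The 8 are among the 12 members (33.3%, beside 25.2% of all genes) whose groups do not overlap, so the lack of overlap here is no separate result. Aldoc, Eno3, P4ha1 and Egln1 lie lower and Slc16a1, Pfkfb3, Bnip3 and Pdk2 higher in the EBF arrays. Of these, Aldoc, Eno3 and Slc16a1 passed the threshold with the replicate block, and Pdk2 lies below the highest Bacillus value.

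Pyruvate dehydrogenase, with Pdha1 as its catalytic subunit, feeds pyruvate to the mitochondria, and the Pdk kinases switch it off. Pdk2 read 329.9, 348 and 305 against 278, 262 and 286, without overlap but below the highest Bacillus value (0.22 ± 0.08, adjusted p = 0.185). Pdha1 read 6219.7, 6362 and 6552 against 6894, 6669.6 and 6499, where EBF 3 lay above control 3 (-0.07 ± 0.07). Pdk1, a HIF-1 target, and Pdk3 had differences of 0.03 ± 0.09 and -0.03 ± 0.12. None of these 4 passed in either fit.

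Of the 7 hypoxia-linked members 0 passed in either fit, and 2 (28.6%) had an unadjusted p under 0.05 (Bnip3 higher and P4ha1 lower) beside 19.7% of all genes. At the brightest probe sets Bnip3 alone of the 7 had a positive difference, as did 10555 of all 18193 genes. Hif1a, the oxygen-regulated subunit of HIF-1, read 2845, 2912 and 3074 in the EBF and 3273, 3047 and 3118 in the control arrays (-0.09 ± 0.07, adjusted p = 0.492), and its other 3 probe sets had 0.09, 0.27 and 0.03. Egln1, the main prolyl hydroxylase that marks HIF-1 alpha, read 3786, 3759 and 3374 against 4322, 3978 and 3999, without overlap (-0.17 ± 0.08, adjusted p = 0.282), and its other probe set had -0.13. Egln3, a further hydroxylase of this family and itself a HIF target, had -0.05 ± 0.18.

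Bnip3, a HIF target that acts in mitophagy, read 10872, 10570.4 and 9798 against 9379.8, 8689 and 8732. Every EBF array lay above every control array, and the difference was 0.22 ± 0.08 (adjusted p = 0.187, and 0.106 with the block). Vegfa, the vascular growth factor, read 2039, 2684 and 2354 against 2689, 2682 and 2692; the 3 controls lay within a SD of 5.08 while the EBF arrays spread with a SD of 323 (-0.19 ± 0.10, adjusted p = 0.331). Ero1a, an oxidase of protein folding in the endoplasmic reticulum, had -0.01 ± 0.08.

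P4ha1, a catalytic subunit of the prolyl hydroxylase that matures collagen, read 3001, 2988 and 2953 in the EBF and 3691, 3277 and 3793 in the control arrays, which do not overlap (-0.26 ± 0.08, adjusted p = 0.155, and 0.0788 with the block). Its other probe set had -0.14. Of the 25 ST2 feeder cell markers, 15 had a negative and 10 a positive difference, from -0.52 for Ccn2 to 0.31 for Postn, with a median of -0.13, and 0 passed in either fit. The 6 collagen genes among them ran from -0.44 for Col1a2 to -0.08 for Col6a1, all with overlapping groups. The part of the feeder cells in the P4ha1 value was not tested.

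For several members the replicate number had a larger share of the sum of squares than the group. The sum of squares over the 6 arrays was split into group, number and rest, as a description. The number has more levels than the group, so on average it takes the larger share even where neither has an effect. The number had the larger share for 16 of the 36 members and over 50% of the total for 8, while the group had over 50% for 15. Egln3 read 3011, 2589.7 and 1919.9 in EBF 1 to 3 and 3198, 2359 and 2213 in control 1 to 3, high in both arrays numbered 1, and the number took 91.2%. Pdk3, with 2339, 1968 and 2518 against 2429, 2038 and 2519, was low in both arrays numbered 2 (97.7%). Hk1 was low in both arrays numbered 1 (71.5%), and Pfkl, at 5368, 4106 and 4183 against 4811, 3889 and 4653, was high in them (81.6%). The group took 97.1% for Slc16a1, 93.1% for Aldoc and 80.6% for Eno3. All 3 same-numbered pairs had the same sign for 19 members. The counts of this paragraph were not taken over all genes, so they show no trait particular to the members.

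**Figure D3:**
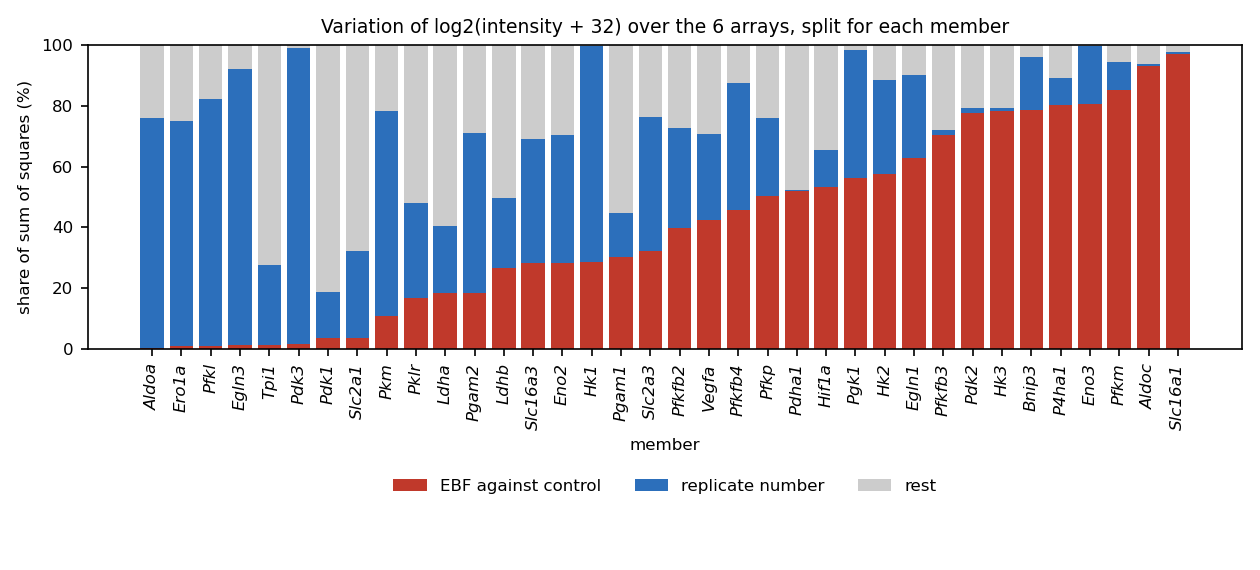
Share of the sum of squares of log2(intensity + 32) over the 6 arrays (y axis, percent) that falls to the difference between EBF and control (red), to the replicate number (blue) and to the rest (grey) for each member (x axis, ordered by the red share). The red share runs from 0.325% for Aldoa to 97.1% for Slc16a1, and Egln3, Pdk3, Pfkl and Hk1 are mostly blue. The blue and red shares are not on the same footing, as the number has more levels than the group.

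Of 155 other genes around these pathways, 142 were measured; 2 were called higher (Prps1 and Myc) and 1 lower (Pik3r1), beside 0.418% and 0.671% of all genes. With the block 5 were higher and 4 lower, beside 4.8% and 2.51%. At an unadjusted p under 0.05 there were 22 (15.5%), 11 in each direction, beside 19.7%. The median difference of the 142 was 0.02. Of 26 other glycolysis and glucose genes 0 passed in either fit and 4 had an unadjusted p under 0.05; the smallest p-values belonged to Adpgk, an ADP-dependent glucokinase (0.43 ± 0.16, adjusted p = 0.216), and G6pc, the liver glucose 6-phosphatase (0.23 ± 0.09, 0.216), whose values lie within the range of the Bacillus controls. Of 33 genes of pyruvate entry and the TCA cycle 0 passed in either fit and 2 had an unadjusted p under 0.05, Got1, an aspartate aminotransferase (0.27 ± 0.08, adjusted p = 0.150), and Idh1, the cytosolic isocitrate dehydrogenase (-0.31 ± 0.10, 0.164).

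In the pentose phosphate list of 10, Prps1 rose. It encodes the synthetase that turns ribose 5-phosphate into the precursor of nucleotides, and it read 3120.2, 3275 and 3426 in the EBF arrays and 2432, 2246 and 2533 in the controls (0.44 ± 0.08, adjusted p = 0.0456). Leaving out any single array but EBF 3 ended that call (adjusted p up to 0.197), as did either rescaling of the arrays (0.0827 at a common median, 0.0548 by quantiles), the lower pseudocount of 16 (0.0557) and leaving out EBF 3 and control 2 together (0.0603). The ribokinase gene Rbks was higher with the block (0.30 ± 0.07; adjusted p = 0.115, and 0.0449 with the block), and its other probe set had 0.13.

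Of 39 further hypoxia response genes 0 were called, 4 (10.3%) had an unadjusted p under 0.05, all lower, beside 19.7% of all genes (6.23% lower), and 1 was lower with the block beside 2.51%. This was Ddit4, the mTORC1 inhibitor induced by hypoxia and other stress, which read 2132, 1942 and 1620.4 against 2509, 2571 and 3064 (-0.51 ± 0.12; adjusted p = 0.101, and 0.0343 with the block). Of 34 regulators of glycolysis, Myc rose, from 5053, 4270.5 and 4547 in the controls to 6585, 6588 and 6536 (0.51 ± 0.08, adjusted p = 0.0325). Pik3r1, the regulatory subunit of PI3-kinase, fell by 0.58 ± 0.08 (adjusted p = 0.0237), from 6639.6, 6061 and 5645 to 4246, 3838 and 4163. A second Pik3r1 probe set passed as well (-0.59, adjusted p = 0.0345), and the remaining pair had -0.58 and -0.17. Myc lost its call with the arrays at a common median (0.0566) and when any single array but EBF 3 was left out (adjusted p up to 0.159). Pik3r1 kept its call when EBF 3 or control 3 was left out and missed the threshold when any other array was (adjusted p up to 0.130).

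Of the 34 regulators 3 were higher and 3 lower with the block (17.6%), beside 7.31% of all genes. At an unadjusted limma p under 0.05 there were 9 (26.5%), beside 19.7%. The block added 4 regulators, of which Txnip, Prkaa2 and Mycn also passed without EBF 3 (adjusted p = 0.0371, 0.0150 and 0.0367), as did Rbks (0.0361) and Idh1 (0.0290). Without EBF 3, 9.97% of all genes passed. Txnip, which restrains glucose uptake, read 3479, 3137 and 3472 against 4081, 4589 and 4261 (-0.36 ± 0.08; adjusted p = 0.0947, and 0.0393 with the block), and its other probe set had -0.56 (0.0522, and 0.0111 with the block). Prkaa2, a catalytic subunit of the energy sensor AMPK, had 0.45 ± 0.10 (0.0840, and 0.0132 with the block), with 0.20 at each of its other 2 probe sets. Mycn, a relative of Myc, had -0.49 ± 0.12 at its brightest probe set (0.105, and 0.0148 with the block), but -0.05 and 0.07 at the others. Foxo1, a forkhead factor that PI3-kinase signalling holds out of the nucleus, had 0.35 ± 0.17 with overlapping groups (0.301, and 0.0401 with the block). Its other probe sets had 0.41, 0.37 and -0.13 (adjusted p = 0.0978, 0.190 and 0.478, and 0.0235, 0.0243 and 0.381 with the block). Myc and Foxo1 had been named in an earlier account of these data.

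**Figure D4:**
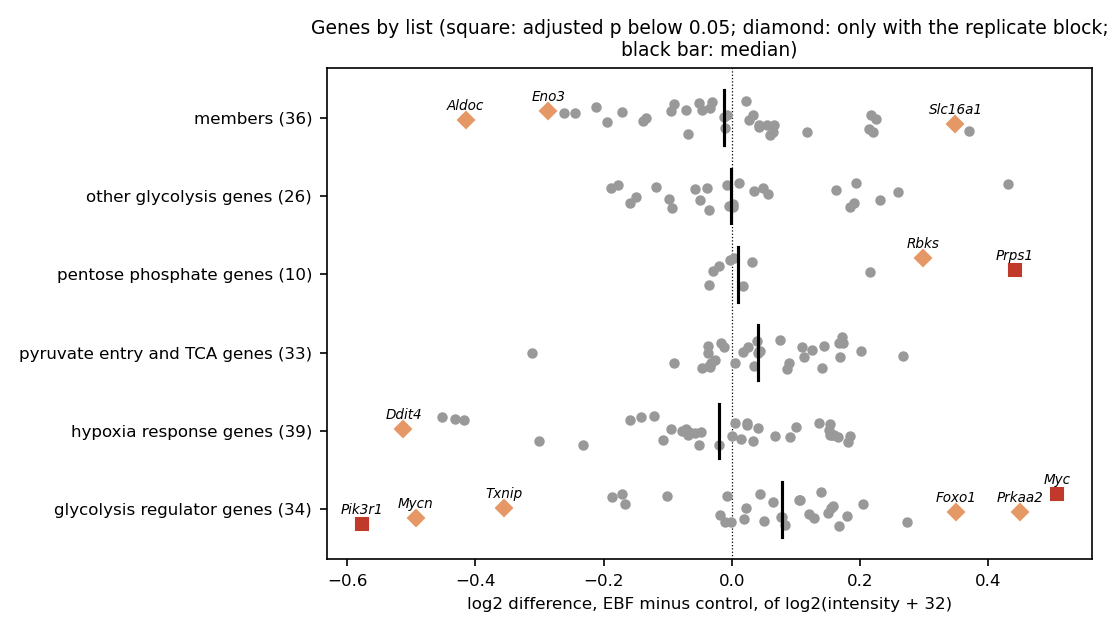
Log2 difference between the EBF and control arrays (x axis, on the log2(intensity + 32) scale) for each gene of the members and of 5 further lists (rows, number of genes in brackets; vertical position within a row is arbitrary). Red squares are called at an adjusted p below 0.05, orange diamonds with the replicate block alone, and black bars are medians; the medians run from -0.02 for the hypoxia response genes to 0.08 for the regulators.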

How the data were processed

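The deposited table gives an intensity per probe set and array on a linear scale. How the authors scanned, corrected and normalized the arrays is not given in the sources used. Per the labels' protocols, biotinylated cRNA was made from 6 microg total RNA. The design text names a rat array, but the organism label is mouse and the probe sets were named through the gene table of a mouse platform. Trimmed means of the arrays differed by at most 1.03-fold, under the limit of 5%, so the arrays were not rescaled. After 64 control probe sets were left out, log2(intensity + 32) of 45037 probe sets entered a two-sided limma fit (version 3.58.1, R 4.3.3) with group as the only term. Fold changes on this scale understate the change of dim genes. The 27 Bacillus control probe sets reached 410 at most. The number of arrays limits the precision. The fit was tested on simulated data.

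Every member is named with its log2 difference. Members that passed in either fit, then those with the smallest p up to 20, then 1 per role, are given array by array. Of the other lists, genes that passed in either fit are named, or the 2 with the smallest p. Genes outside this rule (markers, further probe sets) were chosen after their values were seen. The members and lists were chosen with earlier results of these data known. Same-numbered arrays deviated together (correlations 0.316, 0.251 and 0.505, all above 0.1), so the numbers were taken to pair the arrays, a pairing read from the data and not from the labels. Promoters come from RefSeq (GRCm38.p6).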

Additional observations from a re-analysis of the deposited data

How the results depend on the processing

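The counts of members called, 0 higher and 0 lower, became 1 and 1 with the pseudocount of 64, with a filter on low values (above 207) and with an intensity trend, 0 and 1 with quantile normalization, and 1 and 2 with the replicate block; with 1 array left out they ran from 0 to 2 and from 0 to 1. The pseudocount of 16, the common median, the mean of a gene's probe sets and leaving out EBF 3 and control 2 together gave 0 and 0. The median of the members, -0.01, was -0.041 at a common median and -0.051 to 0.019 with 1 array left out. The median of all genes, 0.03, moved as well, to 0.0025 at a common median and 0.021 to 0.046 with 1 array left out. The other pathway genes called, 2 higher and 1 lower, were 1 higher with the pseudocount of 16 or quantile normalization, 0 higher at a common median, 2 lower with the mean of a gene's probe sets, 5 higher and 4 lower with the replicate block, and 0 to 6 higher and 0 to 5 lower with 1 array left out. The cause of these shifts was not tested.

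Members near 0 changed sign. At a common median Ldha was -0.0076 and Pfkl -0.0019; by quantiles Ldha was -0.00092 and Pdk1 -0.0055. With the mean of their probe sets Hif1a was 0.073, Tpi1 0.063, Ldhb -0.063 and Slc2a3 -0.0084. Without EBF 3 and control 2 together Aldoa was 0.090, Egln3 0.069, Pdk1 -0.039, Pfkl -0.011 and Tpi1 0.00093. With 1 array left out, Aldoa ran from -0.090 to 0.090, Egln3 from -0.19 to 0.13, Ero1a from -0.058 to 0.035, Pdk1 from -0.020 to 0.11, Pdk3 from -0.13 to 0.065, Pfkl from -0.10 to 0.10, Slc2a1 from -0.081 to 0.18 and Tpi1 from -0.042 to 0.0096. Among the members and the other pathway genes named, the block added calls for Aldoc, Eno3, Slc16a1, Rbks, Ddit4, Txnip, Prkaa2, Mycn and Foxo1, and changed no other. Eno2, Slc16a3 and Pdk2 lie below the highest Bacillus value in both groups, which limits what their signal can show.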
